A study of Rattus norvegicus with 12 samples.

Results

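The miR-219a and miR-338 miRNAs of the rat hippocampus are described here across 12 animals. They were the rows of the deposited small RNA tables whose names have the stem miR-219a or miR-338, 5 of 753 mature miRNAs: rno-miR-219a-5p, rno-miR-219a-1-3p, rno-miR-219a-2-3p, rno-miR-338-3p and rno-miR-338-5p (the prefix rno, for rat, is mostly left out from here on). Hippocampal small RNA was sequenced from Sprague Dawley rats, adult males 70 to 80 days old, killed 3 h after 1 intraperitoneal injection. The vehicle group comprised 4 rats (numbers 9, 10, 19 and 20) injected with vehicle only. The ethanol group comprised 8 rats (numbers 3, 4, 7, 8, 15, 16, 23 and 24) injected with 4 g/kg ethanol. The labels name the right hippocampus, and the study's methods name the dorsal hippocampus. The study planned 8 rats in each group, and its other vehicle rats were not analysed here. Each library was made from 1 rat, and the rats were bred in the laboratory with few pups taken from any litter.

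A miRNA gene is transcribed into a hairpin, from which the enzyme Dicer cuts a duplex of 2 short arms, named 5p and 3p. One arm is usually loaded into Argonaute and kept, while the other is degraded. Bases 2 to 8 of the mature miRNA, the seed, pair with target messenger RNAs and lower their stability and translation. In the central nervous system miR-219 and miR-338 are known as miRNAs of oligodendrocytes, the cells that wrap axons in myelin. They rise as precursor cells mature, and they repress factors that hold precursors in an undifferentiated, dividing state, among them Pdgfra, Sox6 and Hes5. In the hippocampus such cells lie mainly in the fibre tracts (alveus and fimbria) and, more sparsely, between the neurons.

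The mature sequences are shown with the seed in capitals, because the seeds separate the 5 miRNAs into 5 different target classes and the sequences show which reads can be assigned to 1 gene. They were taken from RefSeq (build GRCr8), which held entries for 688 of the 753 names.
miR-219a-5p: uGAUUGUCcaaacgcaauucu
miR-219a-2-3p: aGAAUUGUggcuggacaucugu
miR-219a-1-3p: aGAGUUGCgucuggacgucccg
miR-338-3p: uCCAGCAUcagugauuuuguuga
miR-338-5p: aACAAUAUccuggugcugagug
The 5 seeds all differed, and none was shared with another rat miRNA of the table. The 3p arms of the pair of miR-219a genes had 15 of 22 bases in common. Counted from the 5′ end with the base of miR-219a-2-3p first, they differed by A4G, U8C, G10U, A17G, U20C, G21C and U22G. The first pair of these lies in the seed, so the 3p arms have different seeds although their genes are paralogues.

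Both miR-219a hairpins hold the same 5p arm, and the hairpins are shown with both arms in capitals to make that visible.
Mir219-2: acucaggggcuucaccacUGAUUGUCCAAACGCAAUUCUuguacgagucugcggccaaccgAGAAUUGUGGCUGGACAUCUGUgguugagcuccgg
Mir219a1: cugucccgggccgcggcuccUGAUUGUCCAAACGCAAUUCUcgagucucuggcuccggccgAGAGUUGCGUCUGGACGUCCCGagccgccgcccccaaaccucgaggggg
Mir338: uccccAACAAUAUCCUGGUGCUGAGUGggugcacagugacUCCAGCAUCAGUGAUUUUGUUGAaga
Reads of miR-219a-5p therefore cannot be assigned to 1 of the 2 genes, whereas each 3p arm comes from 1 gene. In GRCr8, Mir219-2 lies at chr3:33516504-33516599 on the minus strand and overlaps Cercam and the long noncoding RNA gene LOC120101515. Mir219a1 lies at chr20:4831580-4831689 on the plus strand and overlaps no other gene of the table, between Hsd17b8 and Ring1. Mir338 lies at chr10:105796342-105796407 on the minus strand and overlaps Aatk, a kinase gene of the nervous system. The table gives no exon positions. The deposited counts were made on rn5, an older build, and the positions were not converted.

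Mir219-2 and Mir338 are each overlapped on the opposite strand by another miRNA gene, Mir2964 (the gene of miR-219b) and Mir3065. The antisense miRNAs are shown because their sequences are nearly the reverse complement of members, with the seed in capitals.
miR-219b: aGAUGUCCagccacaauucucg
miR-3065-5p: uCAACAAAaucacugaugcu
miR-3065-3p: uCAGCACCaggauauuguugggga
The complementary run was 20 bases between miR-219a-2-3p and miR-219b, 20 between miR-338-3p and miR-3065-5p and 19 between miR-338-5p and miR-3065-3p. Whether the counting used strand is not given in the sources used here. The antisense rows were close to empty. miR-219b was at 0 in 11 libraries and at 2 reads in vehicle rat 20, miR-3065-5p had 0 to 7 reads and miR-3065-3p had 0 to 3. At these counts the antisense miRNAs were not analysed further.

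Library totals ran from 2243413 to 4917928 reads in the vehicle group and from 1960704 to 3598771 in the ethanol group, so that 3 reads corresponded to 0.631 to 1.57 CPM, the read count scaled to an effective (TMM-scaled) library of 1000000 reads. All 5 members passed the filter on low counts that kept 420 miRNAs. The 5 members together took 0.991 to 1.91% of each library. Of the miRNAs chosen as neuron markers, miR-9a-5p ranked 12, miR-128-3p 27, miR-124-3p 46, miR-132-3p 91 and miR-137-3p 135 of 753 by mean CPM. The summed CPM of the 3 choroid plexus markers was scaled to library totals without TMM factors. It ran from 30353 to 52605 in the vehicle group and from 17211 to 67271 in the ethanol group. The libraries therefore held RNA of choroid plexus marker type in amounts that varied between rats, and its relation to the members is given with the correlations. The tables hold miRNAs only, so no oligodendrocyte messenger RNA was available to check the cell of origin of miR-219a and miR-338.

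The most abundant member was rno-miR-338-3p, the arm of Mir338 that is best known in oligodendrocyte maturation, which ranked 17 of 753. In the vehicle group it stood at 11816, 8771, 15715 and 8298 CPM in rats 9, 10, 19 and 20. In the ethanol group its lowest value was 8696 CPM, its median 12602 and its highest 17120. The group means were 11150 ± 3419 CPM (SD, n = 4) and 12836 ± 2846 (SD, n = 8), and the values overlapped, with vehicle rats 10 and 20 and ethanol rat 16 at the low end.

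The 3p arm of Mir219-2, rno-miR-219a-2-3p, ranked 75. It stood at 1415, 1040.5, 1646 and 895 CPM in vehicle rats 9, 10, 19 and 20. In the ethanol group the lowest value was 962 CPM, the median 1433 and the highest 1637. Vehicle rats held both the highest and the lowest of all 12 values, and the group means were 1249 ± 344 CPM (SD, n = 4) and 1358 ± 267 (SD, n = 8).

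The other arm of Mir338, rno-miR-338-5p, ranked 126. The vehicle rats stood at 308, 239.6, 359 and 209 CPM in the same order, and the ethanol rats had a lowest value of 239 CPM, a median of 279.9 and a highest value of 394. The means were 279 ± 67.5 CPM (SD, n = 4) and 299 ± 56.9 (SD, n = 8), again with overlap.

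The shared 5p arm, rno-miR-219a-5p, the arm to which most known targets of miR-219 belong, ranked 143. It stood at 216, 161, 297 and 139 CPM in vehicle rats 9, 10, 19 and 20, and at a lowest value of 143, a median of 233 and a highest value of 337 CPM in the ethanol group. The means were 203 ± 70.4 CPM (SD, n = 4) and 231 ± 57.2 (SD, n = 8). The means of miR-338-5p and miR-219a-5p were neighbours in the order of levels and differed by about 1 SD of either.

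The 3p arm of Mir219a1, rno-miR-219a-1-3p, was near the floor and ranked 373. Its reads numbered 12, 20, 31 and 19 in vehicle rats 9, 10, 19 and 20, and 9 to 23 in the ethanol rats. These correspond to 3.96, 8.51, 6.52 and 4.04 CPM in the vehicle group and to 3.30 to 7.68 CPM, with a median of 6.11, in the ethanol group. The means were 5.76 ± 2.19 CPM (SD, n = 4) and 5.66 ± 1.69 (SD, n = 8).

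**Figure D1:**
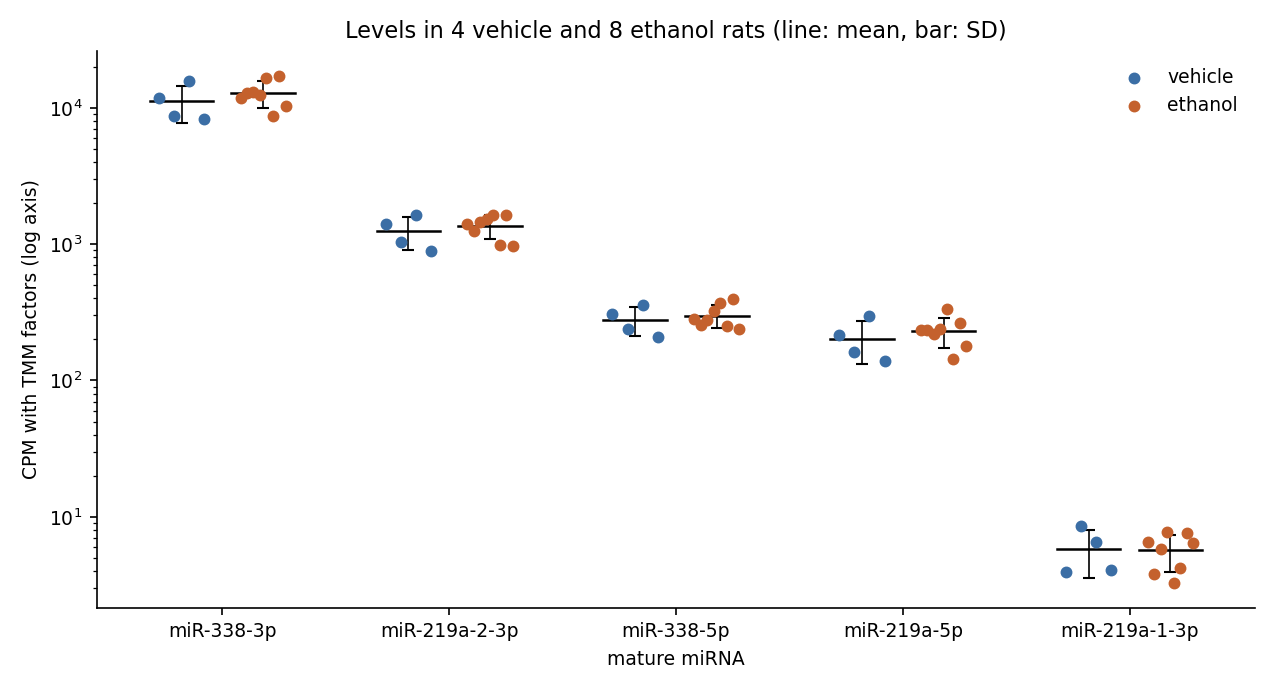
Level of each of the 5 miRNAs in each rat, as CPM on a log axis, with 1 point per rat and the mean with its SD for the 4 vehicle and the 8 ethanol rats. The levels of miR-338-3p sit between 8298 and 17120 CPM and those of miR-219a-1-3p between 3.30 and 8.51, and the groups overlap for every member.

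The order of the rats was shared by 4 of the members. Ethanol rats 15 and 23 and vehicle rat 19 were the 3 highest of 12 for miR-338-3p, miR-338-5p, miR-219a-5p and miR-219a-2-3p alike. The 4 lowest were also the same rats for these 4 miRNAs, namely vehicle rats 10 and 20 and ethanol rats 16 and 24, with vehicle rat 20 lowest each time. Both ends held rats of both groups. For miR-219a-1-3p the highest rat was vehicle 10 and the lowest ethanol 15.

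The highest and lowest rats differed by 2.43-fold for miR-219a-5p, 2.06-fold for miR-338-3p, 1.89-fold for miR-338-5p and 1.84-fold for miR-219a-2-3p. The SD within groups on the log2 CPM scale was 0.36 for miR-338-3p, where counting error alone gives 0.0077. It was 0.41 for miR-219a-5p against a counting SD of 0.058, 0.34 for miR-219a-2-3p against 0.024 and 0.29 for miR-338-5p against 0.050. For miR-219a-1-3p the SD of 0.43 was close to the counting SD of 0.36, so differences between rats in this arm were not resolved at this depth.

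These spreads were set beside those of miRNAs of like abundance. Of the 16 other retained miRNAs within 2-fold of the mean level of miR-338-3p, 87.5% had a smaller SD within groups, and their median SD was 0.14. The share with a smaller SD was 90.2% of 41 for miR-219a-2-3p, 83.6% of 67 for miR-219a-5p, 78.1% of 64 for miR-338-5p and 47.2% of 72 for miR-219a-1-3p. In bulk tissue, fewer cells of a type and less RNA per cell cannot be told apart.

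The arms of Mir338 were held in a narrow ratio. Reads of miR-338-3p exceeded those of miR-338-5p by 38.4, 36.6, 43.8 and 39.7-fold in vehicle rats 9, 10, 19 and 20. In the ethanol rats the ratio ran from 34.6 to 49.7 with a median of 43.2. The 5p arm made up 1.97 to 2.81% of the reads of both arms, and in vehicle rat 9, for example, the share of 2.54% had an exact 95% Clopper-Pearson interval of 2.38 to 2.70%. Such intervals cover counting error only, since the reads carried no molecular identifiers. The log2 ratio had an SD of 0.15 over the 12 rats, against 0.36 for the log2 level of miR-338-3p within groups. The counts still varied more than a fixed ratio allows, with a chi-square of 7.77 per degree of freedom. The geometric mean ratio was 39.5 in the vehicle and 42.6 in the ethanol group, a log2 difference of 0.11 (exact two-sided permutation p = 0.255, adjusted p = 0.879 over 5 ratios).

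For Mir219-2 the 3p arm was the more abundant. Reads of miR-219a-2-3p outnumbered those of miR-219a-5p in all 12 libraries, although the 5p arm can come from both genes. The ratio of miR-219a-5p to miR-219a-2-3p was 0.153, 0.155, 0.180 and 0.155 in vehicle rats 9, 10, 19 and 20 and ran from 0.145 to 0.206 in the ethanol rats. The 3p arm of Mir219-2 thus made up 82.9 to 87.4% of the reads of these 2 arms. The geometric means were 0.160 and 0.169, and the log2 difference of 0.07 was within the spread between rats (exact two-sided permutation p = 0.463, adjusted p = 0.879). How evenly the kit captures different small RNA ends was not measured here, so a ratio of arms is a ratio of reads and not of molecules.

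The 3p arms can also be compared between the pair of miR-219a genes. Their ratio compares 3p reads, and how much of each hairpin is kept as its 3p arm was not measured. miR-219a-2-3p exceeded miR-219a-1-3p by 343, 119, 249 and 216-fold in vehicle rats 9, 10, 19 and 20 and by 146 to 477-fold in the ethanol rats. The 3p arm of Mir219a1 made up 0.201 to 0.811% of the reads of both 3p arms. The log2 difference between groups was 0.13 (exact two-sided permutation p = 0.703, adjusted p = 0.879). Set against the shared 5p arm, miR-219a-1-3p gave ratios of 18.5 to 98.1 reads of miR-219a-5p per read, with a group difference of 0.21 on the log2 scale (exact two-sided permutation p = 0.602, adjusted p = 0.879). These ratios rest on 9 to 31 reads of the rare arm in each library, and their log2 SD over the 12 rats was 0.53 and 0.61.

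Of the 5 ratios, the one with the smallest spread joined different genes. Reads of miR-219a-5p per read of miR-338-3p stood at 0.0183, 0.0184, 0.0189 and 0.0167 in vehicle rats 9, 10, 19 and 20, and between 0.0154 and 0.0204 in the ethanol rats. The SD of its log2 value over the 12 rats was 0.12, against 0.15 for the arms of Mir338 and 0.16 for miR-219a-5p to miR-219a-2-3p. The geometric means of the groups were 0.0180 and 0.0179 (exact two-sided permutation p = 0.885, adjusted p = 0.885).

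**Figure D2:**
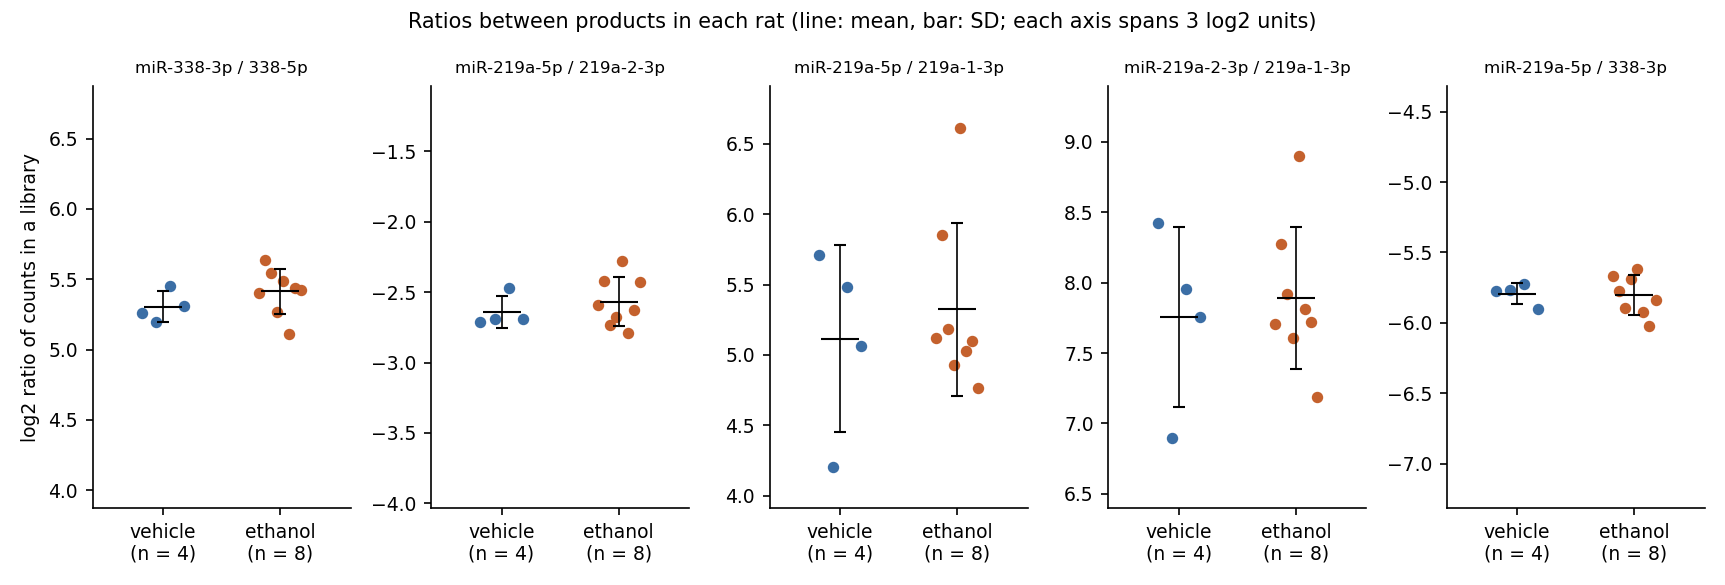
Ratios of read counts in each rat on a log2 scale, with 1 point per rat and the mean with its SD for the 4 vehicle and 8 ethanol rats. The ratios that include miR-219a-1-3p spread over 18.5 to 98.1 and 119 to 477, while miR-338-3p to miR-338-5p stays between 34.6 and 49.7.

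The members were next compared with each other across rats, as RNA of 1 cell lineage in a dissected tissue. Of 10 pairs of members, the 6 pairs without miR-219a-1-3p passed an adjusted p of 0.05, and the 4 pairs with it did not. Over the 12 rats the log2 CPM values of miR-219a-5p and miR-338-3p, which come from different chromosomes, had Pearson's r = 0.96 (permutation p = 1e-05, the smallest the permutations can give, adjusted p = 1e-04) and Spearman's rho = 0.93 (permutation p = 4e-05). Without vehicle rat 20 and ethanol rat 16, the rats farthest from the median of miR-219a-5p, r was 0.93. Leaving out each rat in turn gave 0.95 to 0.98, and the 8 ethanol rats alone gave r = 0.92 (exact permutation p = 0.00241).

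The other pair with miR-338-3p across genes, miR-219a-2-3p and miR-338-3p, had r = 0.92 (permutation p = 8e-05, adjusted p = 0.00018) and rho = 0.89 (permutation p = 0.00033). For miR-219a-2-3p and miR-338-5p r was 0.92 (permutation p = 3e-05, adjusted p = 0.00015) and rho 0.94 (permutation p = 5e-05). For miR-219a-5p and miR-338-5p r was 0.88 (permutation p = 3e-04, adjusted p = 5e-04) and rho 0.89 (permutation p = 0.00019). Without the 2 rats farthest from the median these were 0.92, 0.88 and 0.85, and in the ethanol rats alone 0.88, 0.86 and 0.79. The 4 pairs that joined different genes had r of 0.88 to 0.96, and the 2 pairs of arms of 1 hairpin, given next, lay within that range.

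The arms of Mir338 had r = 0.91 (permutation p = 9e-05, adjusted p = 0.00018) and rho = 0.86 (permutation p = 0.00065). miR-219a-5p and miR-219a-2-3p, which share the hairpin of Mir219-2, had r = 0.93 (permutation p = 5e-05, adjusted p = 0.000167) and rho = 0.91 (permutation p = 1e-04). Without the 2 farthest rats r was 0.85 and 0.87. The 4 vehicle rats were too few for a correlation of their own.

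miR-219a-1-3p did not follow the other members, at a depth that did not resolve its differences between rats. Its r was 0.12 with miR-219a-2-3p (permutation p = 0.703, adjusted p = 0.879), 0.12 with miR-338-5p (permutation p = 0.693, adjusted p = 0.879), 0.03 with miR-338-3p (permutation p = 0.919, adjusted p = 1.0) and close to 0 with miR-219a-5p (permutation p = 1.0, adjusted p = 1.0).

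All values of a rat come from 1 library and share its scaling, so r between any pair of miRNAs has a spread of its own. Among the 87990 pairs of the 420 retained miRNAs the median r was -0.005 and the 5th to 95th percentiles were -0.57 to 0.60. Of all pairs, 0.220% had r at or above the lowest of the 6 pairs named here. Among the 184 miRNAs with a mean of at least 100 CPM, where counting error is small, it was 0.707% of 16836 pairs. Ordered by miR-219a-5p or by miR-338-3p, the largest gap between neighbouring rats was 0.212 and 0.259 of the range.

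**Figure D3:**
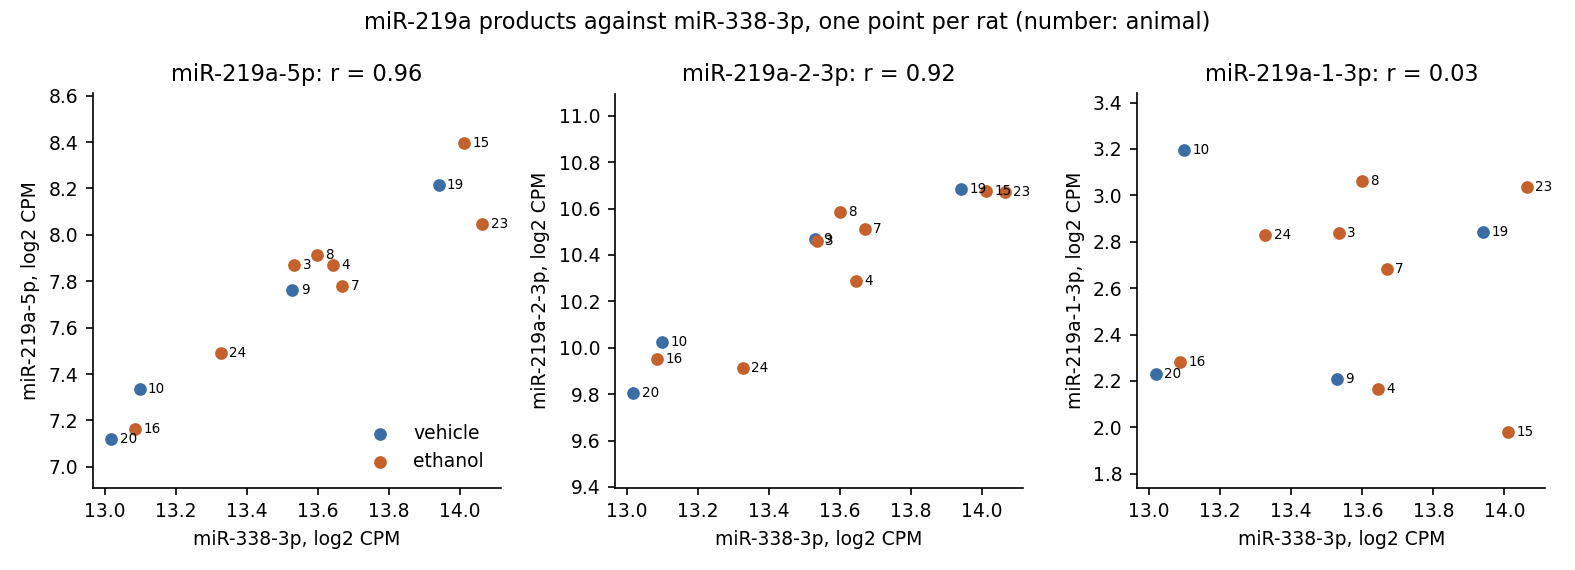
Log2 CPM of miR-219a-5p, miR-219a-2-3p and miR-219a-1-3p against that of miR-338-3p, with 1 point per rat, coloured by group and numbered by animal. The r is 0.96, 0.92 and 0.03 over the 12 rats. For miR-219a-5p and miR-219a-2-3p, ethanol rats 15 and 23 and vehicle rat 19 lie at the upper end and vehicle rat 20 at the lower end.

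The nearest neighbours of miR-219a-5p and of miR-338-3p were then sought among the 419 other retained miRNAs by Pearson's r over the 12 rats. For miR-219a-5p, miR-338-3p ranked 1, miR-219a-2-3p ranked 3, miR-338-5p ranked 6 and miR-219a-1-3p ranked 178. For miR-338-3p the ranks were 1 for miR-219a-5p, 5 for miR-219a-2-3p, 7 for miR-338-5p and 159 for miR-219a-1-3p. The other 415 retained miRNAs had a median r of -0.07 with miR-338-3p and of -0.09 with miR-219a-5p.

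The miRNAs outside the members that lay closest to miR-219a-5p were miR-21-3p (r = 0.94), miR-93-5p (0.93), miR-181b-5p (0.92), miR-21-5p (0.87) and miR-181a-5p (0.87). Those closest to miR-338-3p were miR-181b-5p, miR-21-3p, miR-93-5p, miR-181a-1-3p and miR-181a-5p, with r between 0.89 and 0.96. The r of 0.96 was that of miR-181b-5p, which for miR-338-3p ranked 2, next to miR-219a-5p. miR-21 is known from injury and growth responses of many cell types, and miR-93 belongs to a cluster that promotes cell division. The miR-181 family is abundant in brain, and the mean level of miR-181a-5p was 136756 CPM. High r with miR-338-3p was thus not particular to the members, and the cell of origin of these neighbours was not tested.

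**Figure D4:**
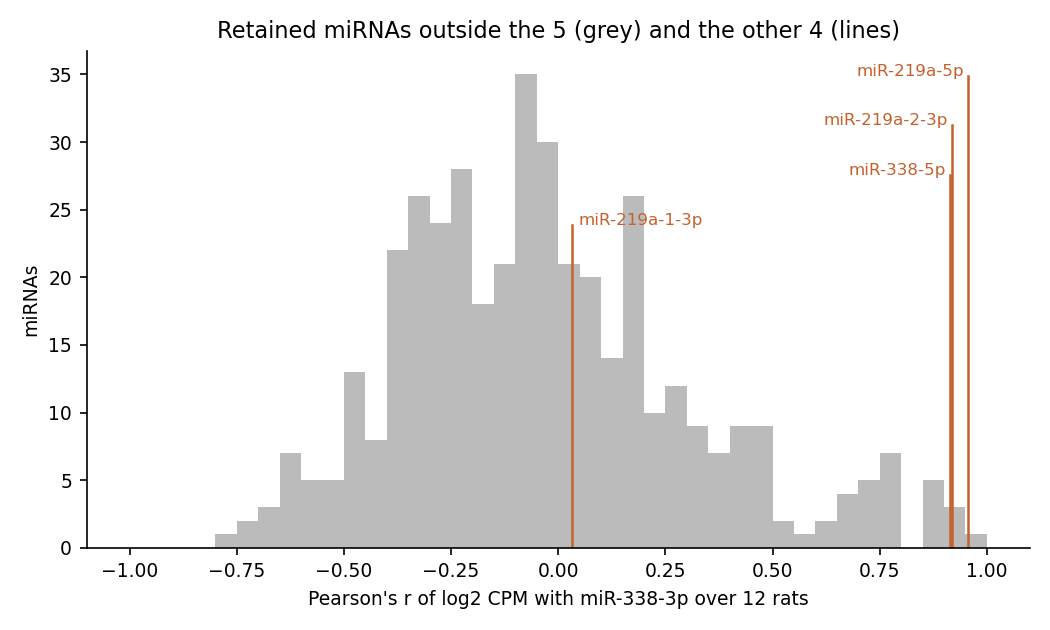
Histogram of Pearson's r over the 12 rats between miR-338-3p and the retained miRNAs outside the members, with vertical lines at the remaining members. Most miRNAs lie around a median of -0.07, while 3 members stand between 0.91 and 0.96 and miR-219a-1-3p stands near 0.

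A list of 12 other miRNAs known from the oligodendrocyte lineage was compared with the members. The list shares miR-204-5p with the choroid plexus markers and miR-145-5p with the vascular markers. All 12 were retained, and their median r was 0.04 with miR-219a-5p and 0.05 with miR-338-3p. The highest were miR-17-5p, of a cluster that drives precursor proliferation, with r of 0.76 and 0.69, and miR-27a-3p with 0.70 and 0.76. miR-23a-3p, known to promote myelination through lamin B1, had -0.35 and -0.38. miR-138-5p, a miRNA of early oligodendrocyte differentiation that neurons also express, had -0.32 and -0.22.

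The mean levels of markers of 6 other tissue or cell types and the library total were set against miR-219a-5p and miR-338-3p. None of the 14 relations passed an adjusted p of 0.05 by Pearson's r or Spearman's rho. With miR-338-3p the mean log2 level of the neuron markers had r = -0.20, the choroid plexus markers -0.30, the ciliated cell markers -0.30, the vascular markers -0.31, the blood and microglia markers -0.50 and the muscle markers -0.41. With miR-219a-5p the values were -0.30, -0.37, -0.39, -0.19, -0.43 and -0.38 in the same order. The muscle mean included miR-1-3p and miR-206-3p, which did not pass the filter on low counts. Taken singly, the 3 retained muscle markers had r of -0.37 to -0.27 with miR-338-3p. The library total had r = 0.12 with miR-338-3p and 0.09 with miR-219a-5p. The smallest unadjusted p was that of the muscle markers with miR-338-3p by Spearman's rho (rho = -0.61, permutation p = 0.0399, adjusted p = 0.509), and the smallest for r was that of the blood and microglia markers with miR-338-3p (permutation p = 0.0962, adjusted p = 0.487). The negative values for vascular and for blood and microglia markers rested on ethanol rats 15 and 23, the 2 farthest from the median of each list and among the highest for the members. Without them r with miR-338-3p was 0.31 for the vascular and -0.06 for the blood and microglia markers, and r with miR-219a-5p was 0.37 and 0.01. The choroid plexus markers had r of -0.14 with miR-338-3p and -0.04 with miR-219a-5p without ethanol rats 3 and 15. In the ethanol rats alone, r with miR-338-3p was 0.06 for the neuron, -0.49 for the choroid plexus and -0.40 for the ciliated cell markers. It was -0.56 for the vascular, -0.74 for the blood and microglia and -0.76 for the muscle markers. Rats 15 and 23 are among these rats, and no p-value was computed for these r.

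The study asked how an acute dose of ethanol shifts hippocampal miRNAs, and the members were compared between groups with edgeR's quasi-likelihood test over all 420 retained miRNAs. None of the 5 members passed an adjusted p of 0.05, where 0.0% of all retained miRNAs passed. At an unadjusted p of 0.05, 0 of 5 members passed, against 4.05% of all retained miRNAs, 17 of 420 (1.67% higher and 2.38% lower in the ethanol group). At an adjusted p of 0.05 DESeq2 called 1 miRNA and limma-trend 0, and neither called a member.

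The level of miR-338-3p was 0.20 higher in the ethanol group on the log2 scale (SE 0.20, 95% interval -0.22 to 0.63, edgeR adjusted p = 0.971, exact two-sided permutation p = 0.323 on log2 CPM). Only 2 of the 8 ethanol rats lay above all vehicle rats. For miR-219a-5p the difference was 0.19 (SE 0.23, 95% interval -0.30 to 0.68, edgeR adjusted p = 0.971, exact permutation p = 0.410). For miR-219a-2-3p it was 0.12 (SE 0.18, 95% interval -0.28 to 0.52, edgeR adjusted p = 0.971, exact permutation p = 0.519). For miR-338-5p it was 0.10 (SE 0.17, 95% interval -0.26 to 0.46, edgeR adjusted p = 0.971, exact permutation p = 0.543). For miR-219a-1-3p it was close to 0 (SE 0.31, 95% interval -0.67 to 0.66, edgeR adjusted p = 1.0, exact permutation p = 0.982).

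The groups overlapped for 5 of 5 members, and they did not overlap for 0.238% of all retained miRNAs. 4 members had a positive and 1 a negative fitted difference, where 46.0% of all retained miRNAs were positive. Since 4 of the members moved together from rat to rat, their common sign is in effect 1 observation. The median difference was 0.12 for the members and -0.015 for all 420. The intervals leave room for rises of up to 0.68 on the log2 scale in miR-219a-5p and falls of up to 0.30. Among the marker lists, summed CPM was scaled to library totals without TMM factors. For the neuron markers it ran from 32406 to 40285 in the vehicle and from 29243 to 36983 in the ethanol group. For the muscle markers it ran from 134 to 1858 and from 109 to 1683. The 3 retained muscle markers were all lower in the ethanol group in the fit, with a median log2 difference of -1.76. Mean levels in the vehicle and ethanol groups were 453 and 114 CPM for miR-133a-3p (log2 difference -1.99, edgeR unadjusted p = 0.0166, adjusted p = 0.971), 504 and 163 for miR-133b-3p and 341 and 100.3 for miR-1b. The part of these in the members' differences was not tested.

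Single vehicle rats moved these differences. Without vehicle rat 19, one of the 3 highest rats, the log2 difference was 0.41 for miR-338-3p, 0.43 for miR-219a-5p, 0.28 for miR-219a-2-3p and 0.25 for miR-338-5p. Without vehicle rat 20, the lowest rat, it was 0.12 for miR-338-3p, 0.08 for miR-219a-5p, 0.03 for miR-219a-2-3p and 0.02 for miR-338-5p. For miR-338-3p it was 0.10 without vehicle rat 10 and 0.13 without ethanol rat 23. No member passed an adjusted p of 0.05 without any 1 rat.

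**Figure D5:**
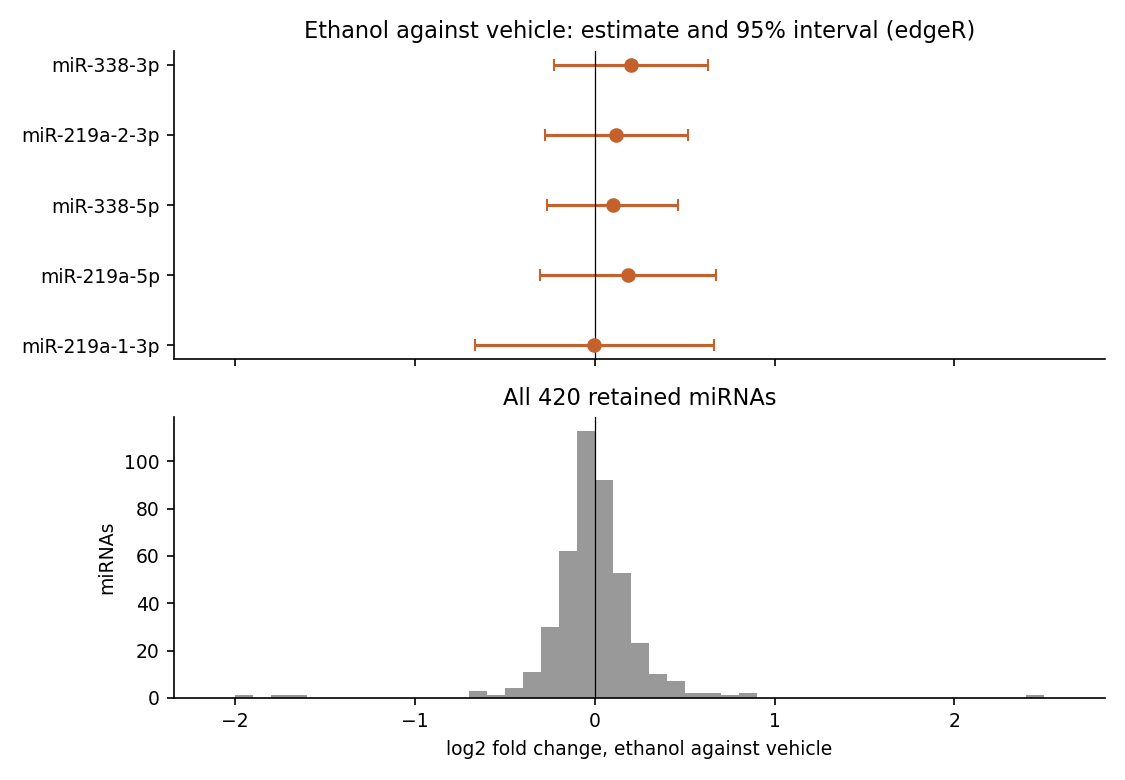
Fitted log2 difference of ethanol against vehicle for each of the 5 members (points, with 95% intervals), above a histogram of the fitted differences of all 420 retained miRNAs. All 5 intervals include 0.

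For the 12 other miRNAs of the oligodendrocyte lineage the same fit was read. None passed an adjusted p of 0.05, 7 were higher and 5 lower in the fit, the values ran from -0.22 to 0.28 and their median was 0.005 on the log2 scale. At an unadjusted p of 0.05, 1 of the 12 passed, against 4.05% of all retained miRNAs, 17 of 420. It was miR-146a-5p, known from inflammatory signalling and from oligodendrocyte differentiation. Its level was 62.6 ± 4.96 CPM (SD, n = 4) in the vehicle and 76.3 ± 12.2 (SD, n = 8) in the ethanol group. The log2 difference was 0.28 (SE 0.13, edgeR p = 0.0471, adjusted p = 0.971, exact permutation p = 0.061).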

How the data were processed

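Small RNA libraries (TruSeq kit, gel-purified inserts of 20 to 30 nt, 37 cycles on a MiSeq) were made by the authors from 12 rats, grouped by the treatment in the labels. The deposited values are each an estimated count made by the authors, with no depth scaling, for each of 753 mature miRNAs, and 80.2 to 83.4% per library were whole numbers. The submitters' processing notes name cutadapt, Partek and build rn5. The counting method and its use of strand are not given in the sources used here. Mature miRNAs are read whole, so levels carry no length scaling.

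Counts were rounded. miRNAs with fewer than 10 reads in at least 10 libraries were dropped, which left 420. Ethanol was compared with vehicle with edgeR 4.0.16 (TMM scaling, quasi-likelihood test, Benjamini-Hochberg adjustment) in R 4.3.3. Levels are TMM-scaled CPM, while summed CPM of marker lists and ranks by mean CPM used library totals alone. Log2 CPM used a prior count of 2 and ratios a pseudocount of 0.5. Single values were compared by exact permutation over 495 splits (smallest p 0.00202), correlations with 100000 permutations. The 3-read floor and the Clopper-Pearson intervals of arm shares cover counting error only. The 95% intervals of the edgeR log2 differences also cover the spread between rats. P-values of group differences judge them against the spread between rats, and those of correlations come from shuffling the rats. Scripts were tested on simulated data.

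The members, marker lists and tests were chosen with earlier results of these data known. The miRNAs named besides the lists were the 5 outside the members with the highest r to miR-219a-5p and to miR-338-3p. Alternatives were other scalings, filters and tools (DESeq2 1.42.0, limma 3.58.1), library totals, group-centred values, a choroid plexus covariate and leaving out each rat. The sequencing set of each library was not given, so no within-set values could be had.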

Additional observations from a re-analysis of the deposited data

Results flagged for a closer look

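In 20 groups of samples examined (levels and ratios, vehicle and ethanol), 1 held a value far from the others, where chance gives about 1 in 20. Vehicle rat 19 had a log2 ratio of miR-219a-5p to miR-219a-2-3p of -2.47, against -2.69 to -2.71 in the other 3 vehicle rats, and its gap to the nearest was 0.924 of the group's range. In the ethanol rats the log2 ratio ran from -2.79 to -2.28, so the value lay within the range of all 12 rats.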

How the results depend on the processing

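No paired analysis was possible because the vehicle and ethanol rats share no animal number. The number of miRNAs past an adjusted p of 0.05 was 1 with DESeq2 (miR-133b-3p) and ran from 0 to 3 when each rat was left out, with 3 (miR-1b and both retained 3p arms of miR-133, no members) without ethanol rat 16. The 6 pairs of members past an adjusted p of 0.05 were past it under every alternative run, including a linear adjustment for choroid plexus markers chosen after seeing the data. Among the members' group differences, ratios and correlations with each other, the values that changed sign were these. The log2 difference of miR-219a-1-3p was 0.0066 with RLE scaling, 0.0039 with no filter, 0.027 with at least 10 reads in at least 10 libraries, 0.018 with filterByExpr, 0.0022 with DESeq2, 0.0010 with the choroid plexus covariate, 0.0019 with unrounded counts and -0.12 to 0.20 without each rat. Its r with miR-338-3p was -0.035 on library totals, and that with miR-219a-5p 0.0031 on group-centred values. Without each rat, its r ran from -0.17 to 0.33 with miR-219a-5p, -0.033 to 0.33 with miR-219a-2-3p, -0.14 to 0.29 with miR-338-3p and -0.047 to 0.39 with miR-338-5p. The log2 group difference of the ratio ran from -0.10 to 0.41 for miR-219a-5p to miR-219a-1-3p, -0.15 to 0.35 for miR-219a-2-3p to miR-219a-1-3p and -0.048 to 0.020 for miR-219a-5p to miR-338-3p. The cause of these changes was not tested. miR-219a-1-3p had 9 to 31 reads a library. The ratio of miR-219a-5p to miR-338-3p, which also changed sign, rests on at least 378 and 20611 reads of these miRNAs.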
